A study of Homo sapiens with 8 samples.

Results

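The mitochondrial solute carriers of the SLC25 family were followed across 4 groups of RNA-sequencing libraries from human triple-negative breast cancer cells. Members were all gene symbols made of SLC25A and a number, which gave 48 of the 23686 symbols in the deposited gene tables. The study sequenced Hs578T and MDA-MB-231, cell lines whose tumours lacked the oestrogen, progesterone and HER2 receptors. Each line was sequenced as a control, whose type the labels do not state, and after loss of GPX1, a selenium-dependent glutathione peroxidase that reduces hydrogen peroxide with glutathione. The 4 groups were thus Hs578T control, Hs578T siGPX1, MDA-MB-231 control and MDA-MB-231 siGPX1, with 2 libraries each. The titles of the depleted libraries carry an siRNA prefix while their genotype label reads Gpx1-/-, and they are called siGPX1 here. The labels give neither the number of siRNAs nor the time after transfection, and nothing says that the paired libraries came from separate cultures. The p-values thus take in only how far these libraries differ, which may be technical spread.

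SLC25 proteins move metabolites, nucleotides and cofactors across the inner mitochondrial membrane, which is otherwise closed to most of them. Best known are the ADP/ATP carriers, which send ATP made by oxidative phosphorylation to the cytosol in exchange for ADP, and the phosphate carrier, which supplies the phosphate for it. Other members carry carboxylates and amino acids of the malate-aspartate shuttle, coenzymes, iron or glutathione. The mitochondrial pool of glutathione is imported from the cytosol, since it is not made inside the organelle.

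Libraries held 12905808 to 14216365 estimated counts and detected 15573 to 15805 genes. GPX1 itself had 1117 and 1074 counts in the Hs578T controls and 42 in each siGPX1 library. In MDA-MB-231 it had 2944 and 3223 counts in the controls and 108 and 95 after depletion. Of the 48 carriers, 41 had enough counts to be tested. The other 7 (SLC25A2, SLC25A18, SLC25A31, SLC25A41, SLC25A47, SLC25A48 and SLC25A52) had at most 8 counts in any library.

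In Hs578T 14 of the 41 tested carriers fell after GPX1 depletion and 8 rose, so that 53.7% passed in either direction, beside 50.7% of all tested genes. The counterpart in MDA-MB-231 was 14 falls and 3 rises, 41.5% beside 42.6%. A change passed at an adjusted p under 0.05 by the quasi-likelihood test of edgeR, with Benjamini-Hochberg adjustment over all 14249 tested genes. The falls were 34.1% of the tested carriers in each line, against 22.1% of all tested genes in Hs578T. For MDA-MB-231 the share of all genes was 21.9%. The rises were 19.5 and 7.32% of the carriers, against 28.6 and 20.7% of all genes. The carriers had a median log2 change of -0.01 in Hs578T, beside 0.04 over all genes, and for MDA-MB-231 it was -0.18 beside 0.00. In Hs578T 4 carriers fell by more than 2-fold (SLC25A6, SLC25A39, SLC25A23 and SLC25A25), which is 9.76% of them against 3.66% of all genes. In MDA-MB-231 SLC25A23, SLC25A25 and SLC25A39 did so, which is 7.32% against 2.95%. No carrier rose by more than 2-fold in either line, where 2.77 and 1.24% of all genes did.

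Across the lines 11 carriers fell in both (SLC25A4, SLC25A6, SLC25A10, SLC25A11, SLC25A13, SLC25A22, SLC25A23, SLC25A24, SLC25A25, SLC25A39 and SLC25A42), and 14.3% of all tested genes did the same. SLC25A15, SLC25A30 and SLC25A36 rose in both, as did 14.9% of all genes. SLC25A32 was the 1 carrier that passed in opposite directions, as did 1.54% of all genes. Its MDA-MB-231 call was lost with DESeq2 and without any 1 of the 4 MDA-MB-231 libraries. The plot of changes by role shows the carriers side by side.

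**Figure D1:**
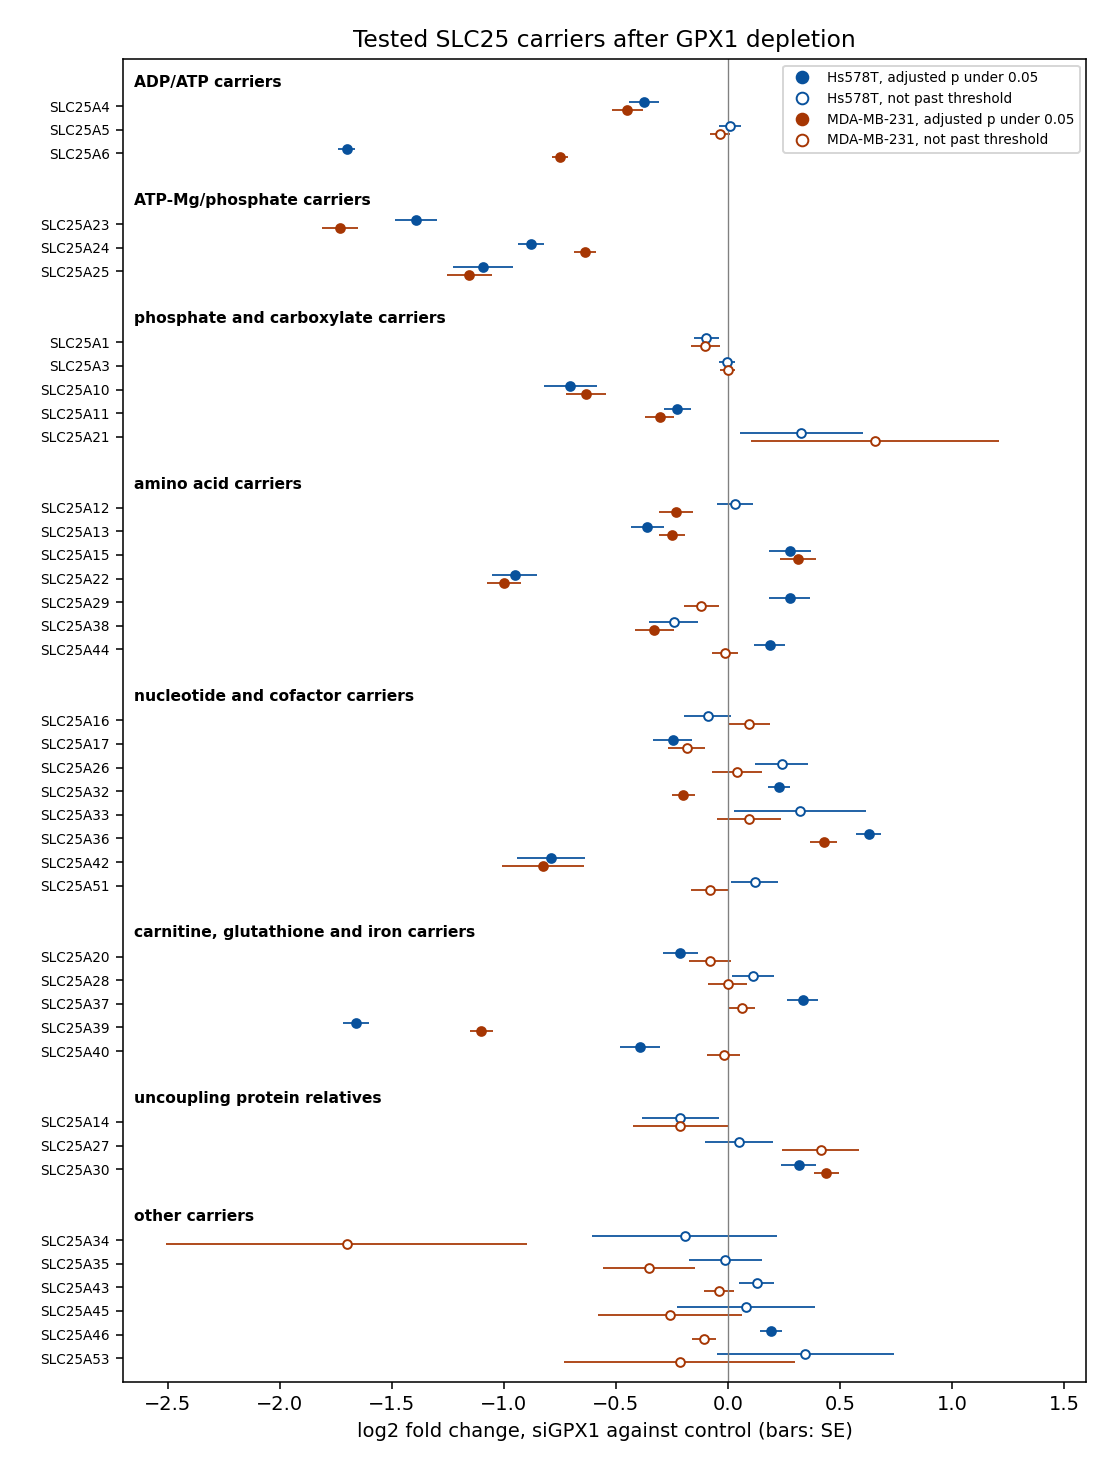
Log2 fold change of tested SLC25 carriers, siGPX1 against control, in Hs578T (blue) and MDA-MB-231 (brown), grouped by the substrate of the carrier. Points are fitted values with their standard error, and filled points passed an adjusted p of 0.05. The 3 ATP-Mg/phosphate carriers lie left of 0 in both lines, and SLC25A6 and SLC25A39 lie furthest left in Hs578T.

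The 3′ UTRs of the carriers were searched for a 7-base match to GGGCATC or the overlapping GGCATCA. This pair of sequences was taken up because earlier results of these data had named it. The medians and shares of all genes given below come from the same libraries and are no separate support for the pair. Of 13165 tested genes with an annotated 3′ UTR, 1898 (14.4%) held a match on the transcript's strand, with a median log2 change of -0.17 in Hs578T, beside 0.07 for genes without one. The MDA-MB-231 medians were -0.20 and 0.02. Of the genes with a match 43.3% fell in Hs578T, and 43.8% did so in the other line. Among the 41 tested carriers 4 (9.76%) held a match. The sites are shown with the match in capitals because they mark which carriers belong to that class, 5′ to 3′ from GENCODE 29 transcripts on GRCh38, plus strand.
SLC25A4, chr4:185147872-185147901: caggaggctgaGGCATCAgaatcacttgaa
SLC25A42, chr19:19111672-19111701: cctgcatcctgGGGCATCtgctgaaatgtg
SLC25A44, chr1:156211251-156211280: agtctaagctgGGGCATCccctggcccaga
SLC25A27, chr6:46676496-46676525: tattgaaatatGGGCATCtgcaacacatac

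The sites begin 912 bases after the stop codon in SLC25A4, 807 in SLC25A42, 831 in SLC25A44 and 53 in SLC25A27. SLC25A4 and SLC25A42 fell in both lines, SLC25A44 rose in Hs578T and did not pass in MDA-MB-231, and SLC25A27 passed in neither. SLC25A6, SLC25A39, SLC25A23, SLC25A25, SLC25A22 and SLC25A24, the 6 largest falls of Hs578T, had no match in the 3′ UTRs searched. Of the 6 largest falls of MDA-MB-231, SLC25A42 was the 1 with a match. Among the 37 carriers without a match 12 (32.4%) fell in each line, beside 19.4% of all genes without one in Hs578T and 19.1% for MDA-MB-231. Rises among these 37 numbered 7 in Hs578T (18.9%, where 3606 of 11267 such genes rose) and 3 in the other line (8.11%, where 2617 of them rose). A further pair of sequences named by earlier results, ACTTCGA or TACTTCG, was held by 0 of the 41 carriers and by 2.8% of the tested genes, whose median log2 changes were 0.21 in Hs578T and 0.18 for MDA-MB-231. A match is a run of letters and not a shown site of binding.

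Among the ADP/ATP carriers SLC25A6 (also called ANT3) fell 3.25-fold in Hs578T and 1.68-fold in MDA-MB-231. In CPM (the counts of a library scaled to a common total, with TMM factors), SLC25A6 stood at 651 and 650 in the Hs578T controls and at 198 and 202 after depletion. In MDA-MB-231 SLC25A6 stood at 451 and 476 in the controls and at 276 and 275 after depletion. Each pair of siGPX1 libraries lay far below its controls with no overlap. The log2 change of SLC25A6 was -1.70 ± 0.0374 (SE, adjusted p = 2.31e-14) in Hs578T and -0.75 ± 0.036 (adjusted p = 1.74e-10) in MDA-MB-231. The gene lies in the pseudoautosomal region shared by the sex chromosomes, and the deposited gene value sums its transcript with a numbered copy of the same transcript.

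SLC25A4 (ANT1), the carrier of heart and muscle, was the lowest of the 3 tested ADP/ATP carriers and fell in both lines, by 0.38 on the log2 scale in Hs578T and by 0.45 in MDA-MB-231. Its CPM went from 42.6 and 45.2 to 33.7 and 33.9 in Hs578T, and from 32.7 and 35.1 to 24.3 and 25.3 in MDA-MB-231. SLC25A5 (ANT2), the form of dividing cells, did not pass in either line, with log2 changes of 0.01 ± 0.0477 and -0.04 ± 0.0452. Its CPM was 235 and 231 in the Hs578T controls and 220 and 248 after depletion, so the depleted libraries lay on both sides of the controls. In MDA-MB-231 SLC25A5 stood at 301 and 308 in the controls and 294 and 299.9 after depletion. The antisense gene SLC25A5-AS1, at 7.22 to 10.7 CPM, could share reads with SLC25A5 because no source used here says whether counting used strand. SLC25A31, the carrier of the germ line, had at most 1 count in a library.

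The make-up of the ADP/ATP carrier transcripts was also compared. On TPM, a scale that divides counts by transcript length and so allows genes to be compared, SLC25A6 made up 70.4 and 70.7% of the 3 carriers in the Hs578T controls, and 43.9 and 41.4% after depletion. In MDA-MB-231 its share was 56.8 and 57.6% in the controls and 45.4 and 44.8% after depletion. SLC25A6 was the leading ADP/ATP carrier in all 4 control libraries, and SLC25A5 led in all 4 siGPX1 libraries. Their summed TPM was 1539 ± 13.2 (SD, n = 2) in the Hs578T controls and 755 ± 32.7 after depletion, and 1489 ± 32.8 and 1129 ± 5.94 in MDA-MB-231. These shares and sums are given without a test.

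**Figure D2:**
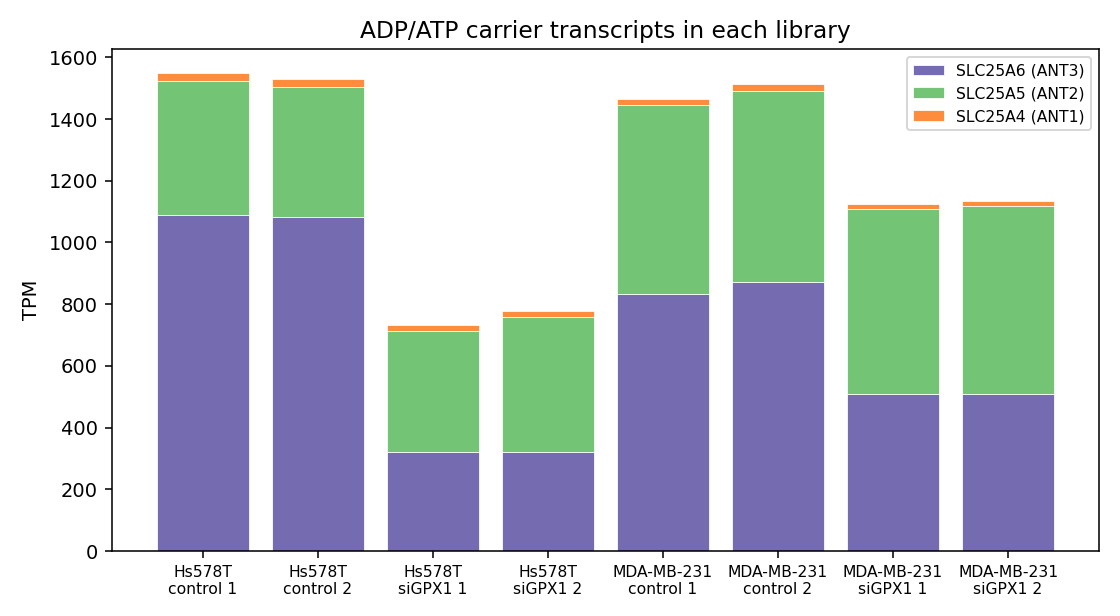
TPM of SLC25A6, SLC25A5 and SLC25A4, stacked, in each of the 8 libraries, from 0. The stack is shorter in the siGPX1 libraries of both lines, mostly through the SLC25A6 segment, which went from 1086 to 322 TPM on average in Hs578T and from 851 to 509 in MDA-MB-231.

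SLC25A6 carried much of the summed change of the family. The CPM summed over the 48 members was 2455 ± 15.8 (SD, n = 2) in the Hs578T controls and 1884 ± 44.3 after depletion. The change of SLC25A6 was 78.9% of this net fall of 23.3%. In MDA-MB-231 the sum went from 2683 ± 37.2 to 2216 ± 1.24, and the change of SLC25A6 was 40.2% of the net fall. Rises of other members make the net fall smaller than the summed falls. In Hs578T the falls summed to -681 CPM, with -451 from SLC25A6, and the rises to 109. In MDA-MB-231 the falls summed to -507 CPM, with -188 from SLC25A6, and the rises to 40.5. Without SLC25A6 the Hs578T sums were 1805 and 1684, and those of MDA-MB-231 were 2220 and 1941. Mean CPM was lower after depletion in 24 members and higher in 22 in Hs578T, and lower in 35 and higher in 12 in MDA-MB-231. These counts take in differences of any size, without a test, and the untested members with few counts. The share of all genes by the same measure was not taken, so the counts do not set the family apart. In bulk RNA, fewer cells with a transcript and less of it per cell cannot be told apart.

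All 3 tested ATP-Mg/phosphate carriers fell in both lines, as did 14.3% of all tested genes. The median log2 change of the 3 carriers was -1.09 in Hs578T, beside -1.16 for MDA-MB-231. These calcium-regulated carriers exchange ATP-Mg for phosphate and so adjust the pool of adenine nucleotides in the matrix. The CPM of SLC25A23 was 39.3 and 38.4 in the Hs578T controls and 16.3 and 13.3 after depletion, and 62.2 and 67.5 in the MDA-MB-231 controls and 20.4 and 18.6 after depletion. Its siGPX1 libraries were below the controls in both lines with no overlap. The log2 change of SLC25A23 was -1.39 ± 0.0941 (adjusted p = 6.22e-09) in Hs578T and -1.73 ± 0.0791 (adjusted p = 9.92e-11) in MDA-MB-231, where it was the largest fall of any carrier that passed.

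SLC25A25, whose transcript was the least abundant of the 3, stood at 17.2 and 14.4 CPM in the Hs578T controls and at 7.23 and 7.57 after depletion. In MDA-MB-231 SLC25A25 went from 29.1 and 33.2 to 13.1 and 14.9 CPM. Both falls exceeded 2-fold without overlap, at -1.09 ± 0.134 (adjusted p = 5.01e-06) and -1.16 ± 0.0997 (adjusted p = 1.61e-07). SLC25A24, the most abundant, went from 112 and 102 to 60.9 and 55.6 CPM in Hs578T, and from 185 and 180 to 118 and 117 CPM in MDA-MB-231. Its groups did not overlap in either line, and its log2 changes were -0.88 ± 0.0574 (adjusted p = 4.24e-09) and -0.64 ± 0.0478. SLC25A41, the fourth carrier of the class, had at most 2 counts in a library. Summed over the class, CPM went from 162 ± 9.78 (SD, n = 2) to 80.5 ± 5.60 in Hs578T. In MDA-MB-231 it went from 279 ± 3.17 to 151 ± 0.179.

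The carriers of phosphate and carboxylates split. SLC25A3, the phosphate carrier, stood at 350 and 357 CPM in the Hs578T controls and 345 and 361 after depletion, and at 554 and 546 in the MDA-MB-231 controls and 552 and 547 after depletion. Its groups overlapped within each line, and its log2 changes were -0.00 ± 0.0357 and -0.00 ± 0.0339. SLC25A1, the citrate carrier, did not pass in either line, at -0.10 in each.

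SLC25A10, the dicarboxylate carrier, which exchanges malate or succinate for phosphate, fell in both lines. Its CPM went from 28.0 and 24.0 to 14.6 and 17.3 in Hs578T, and from 46.1 and 55.1 to 33.3 and 31.9 in MDA-MB-231. The groups did not overlap, and the log2 changes were -0.70 and -0.63. SLC25A11, the oxoglutarate/malate carrier, fell by 0.23 and by 0.31. SLC25A21, the oxoadipate carrier, had 5 to 49 counts a library and did not pass.

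**Figure D3:**
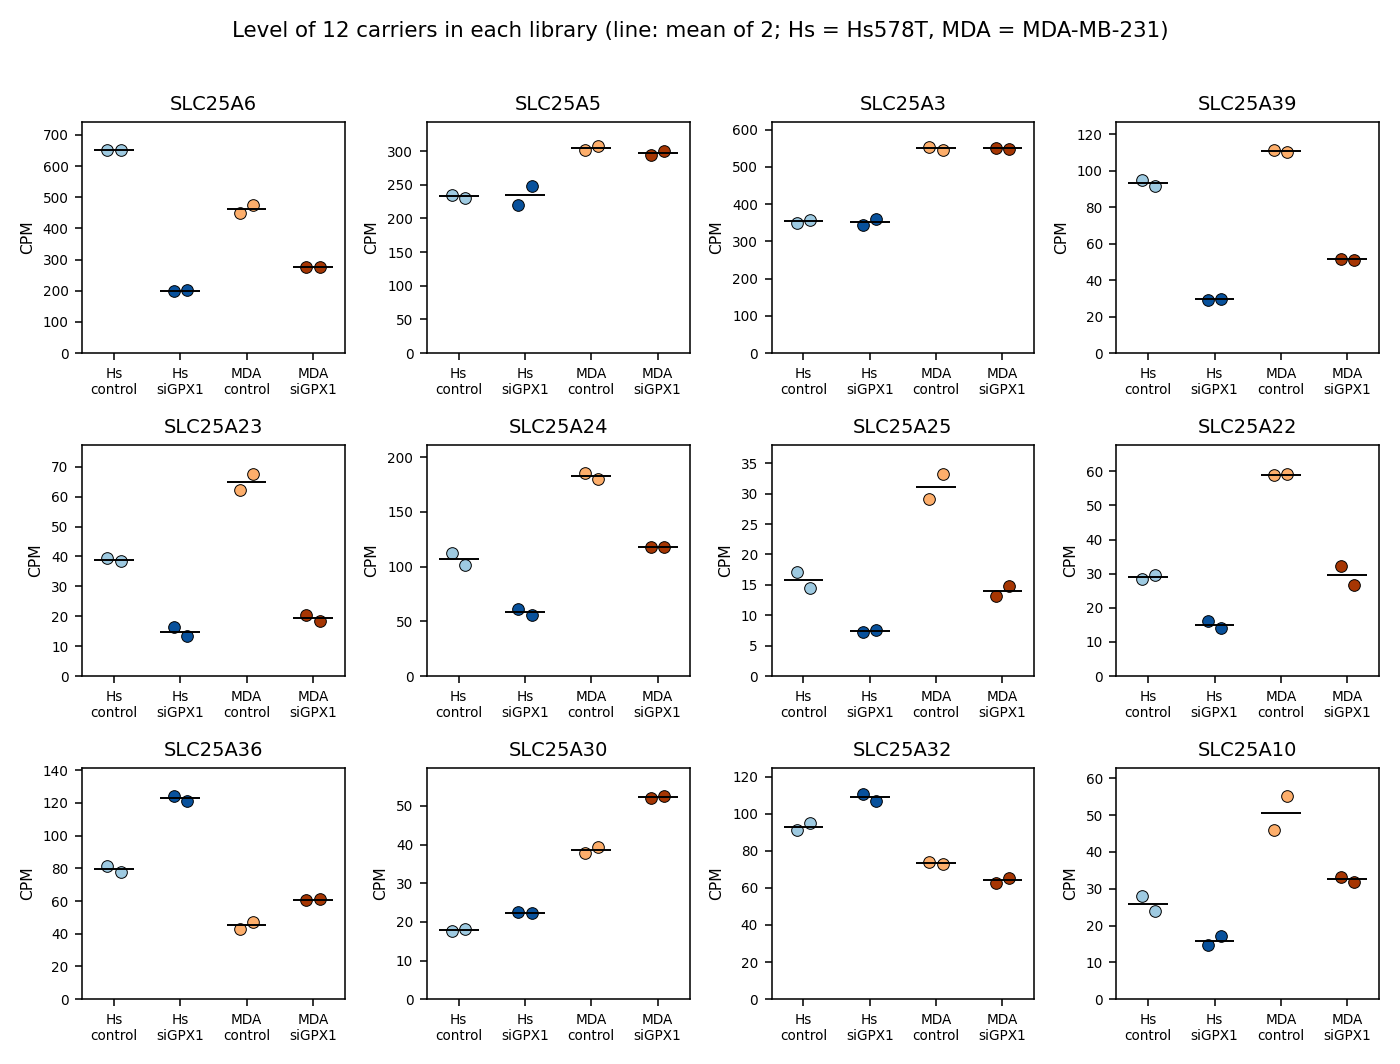
CPM of 12 carriers in each library, each panel from 0, with the mean of the 2 libraries of a group as a line. SLC25A3 and SLC25A5 stay near the level of their controls, the ATP-Mg/phosphate carriers SLC25A23, SLC25A24 and SLC25A25 are lower in the siGPX1 libraries of both lines, and SLC25A32 is higher in those of Hs578T and lower in those of MDA-MB-231.

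Of the 7 tested amino acid carriers 5 passed in Hs578T, 3 upward and 2 downward, and in MDA-MB-231 1 went up and 4 went down. In Hs578T these are 42.9% up and 28.6% down, beside 28.6 and 22.1% of all genes, and for MDA-MB-231 14.3 and 57.1%, beside 20.7 and 21.9%. SLC25A22, which brings glutamate into the matrix, had the largest change of the class. It stood at 28.6 and 29.6 CPM in the Hs578T controls and 16.1 and 14.0 after depletion, and at 58.8 and 59.3 in the MDA-MB-231 controls and 32.3 and 26.7 after depletion. The libraries of each line separated by group, with falls of 1.94-fold (0.102 SE on the log2 scale, adjusted p = 1.16e-06) and 2.0-fold (0.077 SE, adjusted p = 4.59e-08). SLC25A13, an aspartate/glutamate carrier of the malate-aspartate shuttle also called citrin, fell by 0.36 in Hs578T and by 0.25 in MDA-MB-231. Its paralogue SLC25A12 fell in MDA-MB-231 alone, by 0.23 (0.03 ± 0.0793 in Hs578T), and the difference between the lines did not pass (adjusted p = 0.112). SLC25A38, the glycine carrier used in haem synthesis, fell by 0.33 in MDA-MB-231. Its change of -0.24 in Hs578T did not pass (adjusted p = 0.0743), and neither did the difference between the lines (adjusted p = 0.751). With DESeq2 the MDA-MB-231 falls of SLC25A12 and SLC25A38 were lost. That of SLC25A13 was lost without any 1 of the MDA-MB-231 libraries.

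SLC25A15, the ornithine carrier of the urea cycle, rose in both lines. Its CPM went from 16.6 and 18.3 to 20.5 and 21.6 in Hs578T, and from 23.9 and 21.1 to 27.6 and 28.3 in MDA-MB-231, with no overlap. The log2 changes were 0.28 ± 0.0933 (adjusted p = 0.0216) and 0.31 ± 0.0804 (adjusted p = 0.0052). SLC25A29, a carrier of basic amino acids, rose in Hs578T from 15.3 and 16.6 to 19.6 and 19.04 CPM (0.28 ± 0.0918, adjusted p = 0.0203). SLC25A44, a carrier of branched-chain amino acids, rose by 0.19 in Hs578T. The Hs578T rises of SLC25A15, SLC25A29 and SLC25A44 passed neither with DESeq2 nor without either MDA-MB-231 siGPX1 library, so that 4 carriers rose in Hs578T with DESeq2 (which also lost SLC25A30) and 5 without either of those libraries, instead of 8.

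The 9 tested carriers of nucleotides and cofactors held the largest rise in Hs578T and a change of opposite sign between the lines. SLC25A36, which carries pyrimidine nucleotides, stood at 81.2 and 77.6 CPM in the Hs578T controls and 124 and 121 after depletion, and at 43.1 and 47.4 in the MDA-MB-231 controls and 60.4 and 61.4 after depletion. Both pairs of depleted libraries were above their controls, by 0.63 ± 0.0544 (adjusted p = 1.09e-07) and 0.43 ± 0.0601 (adjusted p = 3.01e-05). SLC25A42, which exchanges coenzyme A for adenine nucleotides, fell from 14.0 and 16.4 to 8.25 and 9.28 CPM in Hs578T and from 6.32 and 8.42 to 4.65 and 3.64 CPM in MDA-MB-231. Its groups did not overlap, and its log2 changes were -0.79 and -0.83 ± 0.183 (adjusted p = 0.00171). Without the second MDA-MB-231 control library the adjusted p of SLC25A42 was 0.0565 in that line, and SLC25A12, SLC25A13, SLC25A32 and SLC25A38 were lost as well, which leaves 9 carriers falling instead of 14.

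SLC25A32, which carries folate and flavin cofactors, rose in Hs578T from 91.1 and 94.9 to 111 and 107 CPM, by 0.23 ± 0.0491 (adjusted p = 0.00115). In MDA-MB-231 it fell from 73.9 and 73.0 to 62.6 and 65.4 CPM, by 0.20 on the log2 scale (adjusted p = 0.00519), a call that ended with DESeq2 and without any 1 MDA-MB-231 library. The depleted libraries were above both controls in the former line and below both in the latter. SLC25A17, a carrier of the peroxisome membrane, fell by 0.25 in Hs578T, but not with DESeq2, nor without the second control or the first siGPX1 library of that line. The MDA-MB-231 change of SLC25A17 was -0.18 and did not pass (adjusted p = 0.0855), nor did its difference between the lines (adjusted p = 0.799). SLC25A16, SLC25A26, SLC25A33 and SLC25A51 passed in neither line. SLC25A51 and SLC25A52, both linked to NAD, are close copies, so their split of reads is uncertain.

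In the class of carnitine, glutathione and iron carriers SLC25A39 fell strongly in both lines. SLC25A39 imports glutathione into mitochondria, and glutathione is the reductant that GPX1 uses. Its CPM was 94.7 and 91.6 in the Hs578T controls and 29.1 and 29.8 after depletion, and 111 and 110 in the MDA-MB-231 controls and 51.8 and 51.2 after depletion. The SD within a group was at most 2.17 CPM, and the groups of each line did not overlap. The log2 change of SLC25A39 was -1.66 ± 0.0584 (3.17-fold lower, adjusted p = 3.25e-12) in Hs578T and -1.10 ± 0.0511 (2.15-fold lower, adjusted p = 1.15e-10) in MDA-MB-231.

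SLC25A40, the paralogue of SLC25A39, stood at 22.7 and 20.9 CPM in the Hs578T controls and 16.8 and 16.4 after depletion, a log2 change of -0.39 (adjusted p = 0.00158). In MDA-MB-231 it stood at 27.1 and 24.8 CPM in the controls and 25.7 and 25.5 after depletion, so the depleted libraries lay between the controls (-0.02 ± 0.0755). Of the mitoferrins, which import iron, SLC25A37 rose in Hs578T from 28.5 and 27.1 to 34.9 and 35.2 CPM (0.33 ± 0.0688, adjusted p = 0.000774), while SLC25A28 passed in neither line. SLC25A20, the carnitine/acylcarnitine carrier, fell by 0.21 in Hs578T, a call lost with DESeq2 and without any 1 of the 4 Hs578T libraries.

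Among the uncoupling protein relatives SLC25A30 rose in both lines. Its CPM went from 17.6 and 18.3 to 22.4 and 22.2 in Hs578T, and from 37.8 and 39.3 to 52.0 and 52.6 in MDA-MB-231. The groups did not overlap, with log2 changes of 0.32 ± 0.0782 (adjusted p = 0.00308) and 0.44 ± 0.0568 (adjusted p = 1.33e-05). The adjusted p of SLC25A30 in Hs578T was 0.0599 with DESeq2. SLC25A14 and SLC25A27 passed in neither line. Of the 6 tested carriers placed in no class above, SLC25A46, an outer membrane protein of mitochondrial dynamics, rose in Hs578T, though not with the Hs578T libraries fitted alone or without the second Hs578T control, and none passed in MDA-MB-231.

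The test of the difference between the lines (the change in MDA-MB-231 minus that in Hs578T) passed for 7 of the 41 carriers, 17.1% beside 17.0% of all genes. It was above 0 for SLC25A6, SLC25A39, SLC25A24 and SLC25A40, 9.76% beside 6.32% of all genes, and these 4 fell more in Hs578T. SLC25A6 had a difference of 0.95 ± 0.0517 (adjusted p = 1.96e-08) and SLC25A39 of 0.56 ± 0.0787 (adjusted p = 0.00017). The differences of SLC25A40 (0.37 ± 0.117, adjusted p = 0.0387) and SLC25A24 (0.24 ± 0.0751, adjusted p = 0.0384) were smaller and did not pass without the first Hs578T control or the second Hs578T siGPX1 library, which leaves 2 carriers. The difference of SLC25A23, at -0.34 ± 0.128, did not pass (adjusted p = 0.0819), which does not show that the lines responded alike. SLC25A12, SLC25A17, SLC25A20, SLC25A37, SLC25A38 and SLC25A44 each passed in Hs578T or MDA-MB-231 but not in both. Their differences did not pass either, so these calls do not show a change particular to a line. No difference exceeded 2-fold in a carrier that passed, where 0.463% of all genes were above and 1.05% below by that much.

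The difference was below 0 for SLC25A32, SLC25A29 and SLC25A46, 7.32% of the carriers beside 10.7% of all genes. SLC25A32 differed by -0.43 ± 0.0711 (adjusted p = 0.000736). SLC25A46 differed by -0.30 ± 0.0721 (adjusted p = 0.00954), with 113 and 108 CPM in the Hs578T controls, 127 and 125 after depletion, 70.5 and 74.1 in the MDA-MB-231 controls and 69.4 and 64.7 after depletion. SLC25A29 differed by -0.39 ± 0.121 (adjusted p = 0.0359), with 24.7 and 23.9 CPM in the MDA-MB-231 controls and 23.5 and 21.3 after depletion. Only SLC25A32 passed with DESeq2, and also without the second Hs578T control library or any 1 of the MDA-MB-231 libraries.

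Between the controls of the lines 20 carriers were higher in MDA-MB-231 and 14 were lower, 48.8 and 34.1% of the 41, beside 43.0 and 38.6% of all genes. In either direction 82.9% of the carriers passed, beside 81.6%. All 7 tested amino acid carriers and all 3 ATP-Mg/phosphate carriers were higher in MDA-MB-231. SLC25A33, a pyrimidine nucleotide carrier, was furthest above, with 7.77 and 8.55 CPM beside 1.13 and 1.33 in the Hs578T controls (2.72 ± 0.207, adjusted p = 5.18e-09). SLC25A13 (1.14 ± 0.0637, adjusted p = 1.07e-10), SLC25A30 (1.11 ± 0.0688, adjusted p = 4.21e-10) and SLC25A22 (1.02 ± 0.0786, adjusted p = 5.96e-09) were each over 2-fold higher in MDA-MB-231. These 4 are 9.76% of the carriers, and 17.1% of all genes were over 2-fold higher.

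In the other direction 7 carriers were over 2-fold lower in MDA-MB-231, 17.1% beside 18.6% of all genes. SLC25A1, the citrate carrier, stood at 107 and 109 CPM in the Hs578T controls and at 41.2 and 42.4 in the MDA-MB-231 controls, with no overlap (-1.37 ± 0.0591, adjusted p = 4.14e-12). SLC25A21 had 37 and 33 counts in Hs578T and 5 in each MDA-MB-231 control (-3.01 ± 0.404, adjusted p = 4.55e-06), a value that was -1.20 on log2(TPM + 1) at these low levels. SLC25A14 (-1.15 ± 0.183, adjusted p = 2.87e-05) and SLC25A35 (-1.07 ± 0.176, adjusted p = 3.94e-05) were also low in MDA-MB-231, at 2.97 and 3.24 CPM on average. SLC25A20, SLC25A34 and SLC25A42 were the others.

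By TPM the order of the carriers was led by the same 3 genes in each group. In the Hs578T controls SLC25A6 (1086 ± 5.89, SD, n = 2) was above SLC25A3 (519 ± 5.01) and SLC25A5 (429 ± 8.14), followed by SLC25A1 (172 ± 1.58), SLC25A39 (145 ± 3.95) and SLC25A46 (116 ± 4.14). After depletion the order was SLC25A3 (498 ± 11.3), SLC25A5 (415 ± 31.7) and SLC25A6 (322 ± 0.962). In the MDA-MB-231 controls SLC25A3 (886 ± 15.1) and SLC25A6 (851 ± 27.1) were near each other. SLC25A3 was at 897 beside 832 TPM in the first library and at 876 beside 871 in the second, without a test. Both were above SLC25A5 (617 ± 4.86) and SLC25A39 (189 ± 2.45). In the MDA-MB-231 siGPX1 libraries SLC25A3 (888 ± 6.41) and SLC25A5 (605 ± 7.47) were above SLC25A6 (509 ± 1.92), with SLC25A39 (88.5 ± 0.940) and SLC25A24 (87.8 ± 0.212) next and near each other.

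**Figure D4:**
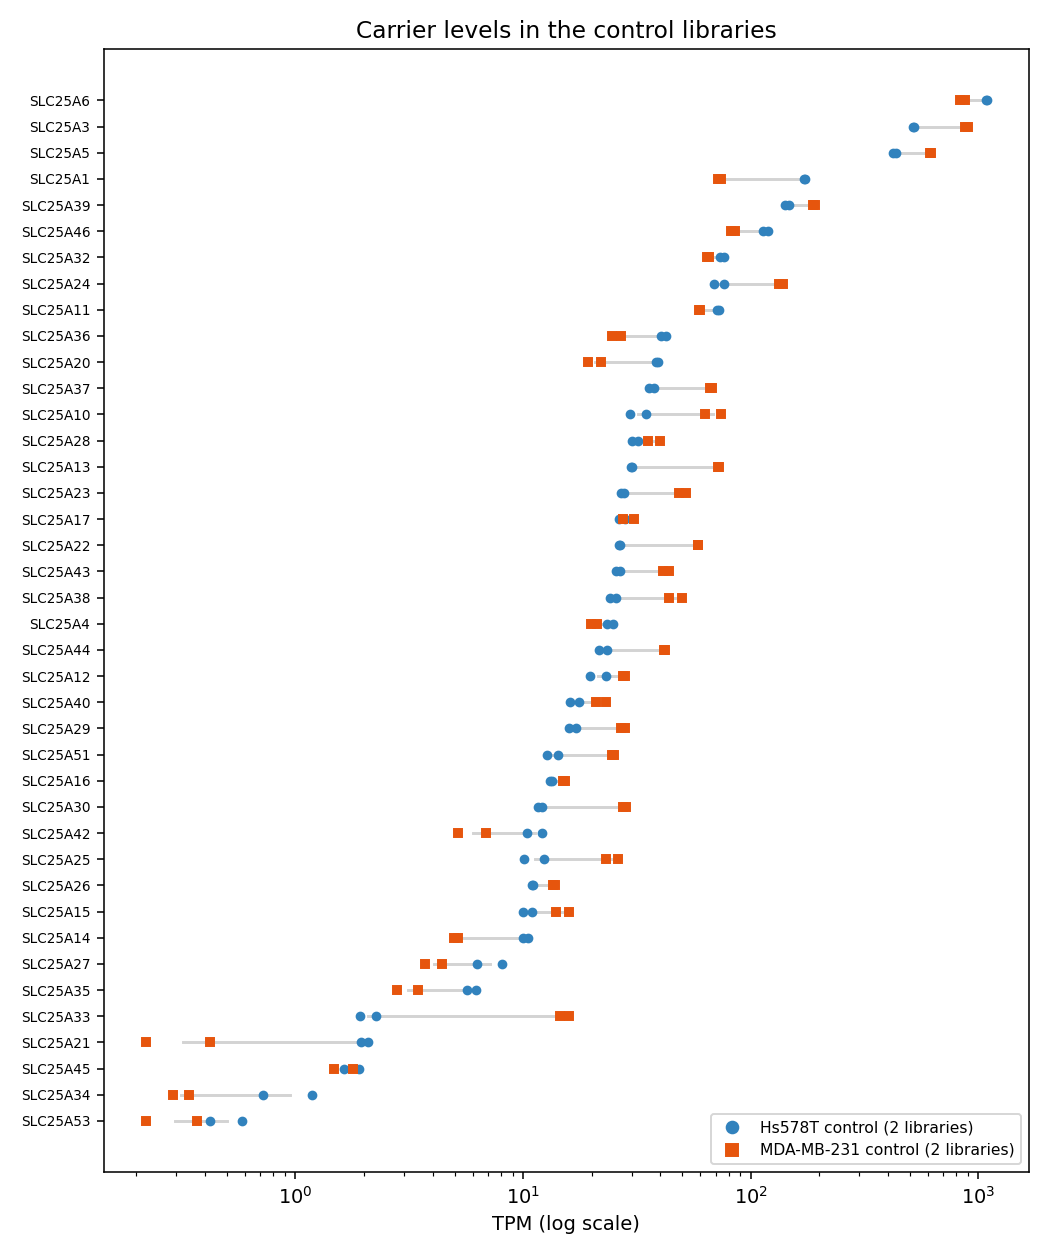
TPM of tested carriers in the 2 control libraries of each line, on a log scale, ordered by the Hs578T mean. SLC25A6, SLC25A3 and SLC25A5 stand above the rest in both lines, while SLC25A33 lies to the right in MDA-MB-231 and SLC25A1 and SLC25A21 to the right in Hs578T.

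Other genes of mitochondrial transport and 4 malate-aspartate shuttle enzymes, which are not carriers, were listed with the family, 27 genes of them tested. Of these 27, 7 rose in each line. Falls numbered 6 in the Hs578T comparison, 2 of them in shuttle enzymes, and 10 in the other, 3 of them in such enzymes. The Hs578T shares were 25.9% up and 22.2% down, beside 28.6 and 22.1% of all genes, and those of MDA-MB-231 25.9 and 37.0%, beside 20.7 and 21.9%. The uncoupling protein UCP2, an SLC25-type carrier under another symbol, had 0, 1, 0 and 0 counts in the Hs578T libraries and 843, 850, 707 and 715 in those of MDA-MB-231, and UCP1 had 0 counts in every library. Among the outer membrane channels VDAC1 rose (0.52 in Hs578T, 0.13 in MDA-MB-231) and VDAC3 fell (-0.60 and -0.36), while VDAC2 did not pass. Of the sideroflexins, SFXN1, a mitochondrial serine carrier, rose in both lines (0.54 and 0.45) and SFXN3 fell in both (-1.18 and -1.47). MCU, the pore of the calcium uniporter, rose by 0.36 and 0.31. MPC1 and MPC2, the pyruvate carrier, passed in neither line. Of the 4 malate-aspartate shuttle enzymes MDH2 fell most (-2.88 and -2.53) and GOT2 fell by 0.66 and by 0.50. MDH1 fell in MDA-MB-231 (-0.12) and did not pass in Hs578T, and GOT1 passed in neither line.

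The labels call the cells epithelial, yet in Hs578T EPCAM and KRT19 averaged 0.0784 and 0.150 CPM in the controls, while in MDA-MB-231 they averaged 20.4 and 239.6. KRT18 and KRT8 were present in the Hs578T controls, at 190.2 and 23.0 CPM on average, and CDH1 was at 0 there. The summed CPM of 5 epithelial markers was higher after depletion, at 581 to 646 beside 212 to 215 in Hs578T. In MDA-MB-231 that sum was 1616 to 1661 beside 1031 to 1033. The Hs578T rise lay mostly in KRT18, which averaged 190.2 CPM in the controls and 583.3 after depletion. KRT8 went from 23.0 to 29.9 there, and EPCAM, CDH1 and KRT19 averaged 0.0832, 0.128 and 0.124 CPM after depletion. The summed CPM of 4 mesenchymal markers was also higher, at 55209 to 61571 beside 43379 to 44214 in Hs578T and 3123 to 3153 beside 2480 to 2499 in MDA-MB-231. FN1 made up most of the Hs578T sum (38073 and 51431 CPM on average), and ZEB1 was lower after depletion, at 99.6 beside 118 in Hs578T and 80.8 beside 91.9 in MDA-MB-231. Markers of other cell types were low, with at most 7.62 CPM for 5 leukocyte markers and at most 11.6 for 4 endothelial markers in any library. Leukocyte markers were 3.89 to 3.95 CPM in the MDA-MB-231 controls and 7.57 to 7.62 after depletion, and endothelial markers 5.64 to 6.62 and 11.1 to 11.6 in Hs578T. CD3E was at 0. Of the receptor genes, ESR1 averaged at most 0.155 CPM in a group, while ERBB2 (HER2) averaged 61.3 to 76.3. PGR averaged 3.33 CPM in the Hs578T controls and 4.38 after depletion, and at most 0.139 in MDA-MB-231. These are RNA levels, and receptor status was not tested. The part of these markers in the carrier results was not tested.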

How the data were processed

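RNA from 8 libraries (4 groups of 2) had been quantified with RSEM 1.2.12 on build hg19, per the submitters' processing notes. The authors deposited an expected count and a TPM value per gene, and no source used here gives the aligner or the use of strand. Expected counts were rounded, genes were kept by filterByExpr and scaled by TMM, and edgeR 4.0.16 fitted 1 mean per group (4 residual degrees of freedom). Calls used the quasi-likelihood test at a Benjamini-Hochberg adjusted p under 0.05 over 14249 genes. Standard errors were derived as the size of the log2 change divided by the root of its F statistic. Full statistics went to the 6 largest passing rises and falls of each line and the 4 largest control differences per direction (mean of at least 1 CPM), and to passing differences between lines. The members, gene lists and 7-base sequences were chosen with earlier results of these data known. UTRs came from GENCODE 29 transcripts, and only UTRs of at least 30 bases were searched. The fit was tested on simulated data. Alternatives were DESeq2 1.42.0 and its size factors, other filters, limma 3.58.1 on log2 TPM, a replicate block, fewer samples and each library left out. Protein sequences were not used here, and 1 tested carrier enters the counts but is not reported here by name. Software was R 4.3.3 and Python 3.11.15 with pandas 2.3.3 and matplotlib 3.10.9.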

Additional observations from a re-analysis of the deposited data

Results flagged for a closer look

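For 7 carriers the response to GPX1 depletion differed between the lines by edgeR's test of the difference with Benjamini-Hochberg adjustment. These were 17.1% of the tested carriers, beside 17.0% of all tested genes, so the count does not set the family apart. The difference is given as the log2 change in MDA-MB-231 minus that in Hs578T. It was 0.95 for SLC25A6 and 0.56 for SLC25A39, which fell in both lines and more in Hs578T. SLC25A24 differed by 0.24 and SLC25A40 by 0.37. SLC25A32, which rose in Hs578T and fell in MDA-MB-231, differed by -0.43. SLC25A46 differed by -0.30 and SLC25A29 by -0.39. The differences of SLC25A24, SLC25A40, SLC25A46 and SLC25A29 did not pass in every alternative setting. The lines differ in much besides the depletion, and their part in these differences cannot be told apart.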

How the results depend on the processing

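Of 36 values of named carriers, 28 stayed past the threshold with the same sign in every one of the 16 alternative settings that gave a value, and 0 of 568 values reversed. These 36 values were the largest passing changes and the passing differences between lines, so smaller calls named above are not among them. Of those smaller calls, the MDA-MB-231 falls of SLC25A12, SLC25A32 and SLC25A38 were lost with DESeq2. So were the Hs578T falls of SLC25A17 and SLC25A20 and the Hs578T rise of SLC25A44. Carriers rising in Hs578T numbered 8, but 4 with DESeq2, 5 with a filter of 5 CPM in 2 libraries and 4 with the 4 Hs578T libraries alone. Carriers with a difference between lines below 0 numbered 3, but 1 with DESeq2, with the 5 CPM filter and with limma on log2(TPM + 1). The cause was not tested. Leaving out each library in turn gave 5 to 8 rising and 12 to 15 falling carriers in Hs578T, 3 to 4 and 9 to 15 in MDA-MB-231, 2 to 4 above and 1 to 3 below 0 for the difference, and 17 to 20 higher and 13 to 15 lower in the MDA-MB-231 controls. The MDA-MB-231 falls numbered 9 without the second control library. With the replicate block 8 rose and 15 fell in Hs578T, 3 rose and 15 fell in MDA-MB-231, and the difference and the controls gave 4 and 3 and 20 and 14. Same-numbered libraries deviated from their group means with correlations of -0.01 to 0.087, which cannot show whether they share a culture or a batch. Rises in Hs578T over all tested genes numbered 4074, and 2871 with DESeq2. They numbered 3363 of 11924 genes with the 5 CPM filter and 3188 of 13225 with the Hs578T libraries alone. Over all genes the difference between lines passed for 900 above and 1528 below 0, for 736 and 543 with DESeq2, 1684 and 797 with the 5 CPM filter and 1114 and 970 with limma. Falls in MDA-MB-231 numbered 3116, 1938 with DESeq2, and 2033 to 2164 without 1 MDA-MB-231 library. On log2(TPM + 1) the all-gene median between controls was 0.17 in place of 0.05. With 2 libraries a group, small changes of carriers of a few CPM could not be resolved.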
